A study of Homo sapiens with 18 samples.

Results

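DAOY is an established human medulloblastoma cell line, and the comparison described here is that of DAOY aggregates after 8 h in a direct current electric field (dcEF) with DAOY aggregates at 0 h. It rests on 6 of the 18 RNA samples of the series, 3 at each time, chosen by the cell line and exposure time in their labels and not by any measured value. Spheroidal aggregates were embedded in a mixture of medium and Growth-Factor-Reduced Matrigel inside an electrotaxis channel, had 24 h there to settle, and were then exposed for 0, 2 or 8 h to a field of 250 V/m. All groups shared the line, the gel, the channel and the waiting time. The 3 DAOY samples taken at 2 h entered the same fit. The 6 U87mg samples of 0 h and 8 h, from an established human glioblastoma line, serve for comparison between the lines. The 3 U87mg samples of 2 h entered only the fits that held U87mg. A fit of all 18 samples is also given as an alternative. Each sample pooled 3 channels, so a replicate is a pool of channels. The methods of the study state that more replicates than were sequenced had been prepared, with fewer for DAOY at 8 h because of RNA quality, and that those of the best quality were kept. The labels and the methods of the study differ on the size of the aggregates. No group stayed in the channel for 8 h with the field off among the samples analysed here, and exposure and elapsed time cannot be told apart.

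Cells that migrate along an electric field, a behaviour called electrotaxis, are thought to read it through charged or mobile membrane proteins that feed into growth factor and PI3K signalling. Over hours such signals reach the nucleus, where immediate early factors such as EGR1 and co-activators such as YAP and TAZ switch on their own sets of genes. The level of an mRNA also depends on splicing, and transcripts that keep an intron are often held in the nucleus or degraded. Medulloblastoma arises in the cerebellum, and the sonic hedgehog type, to which DAOY is usually assigned, is traced to granule neuron precursors.

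The estimated counts in each DAOY library summed to between 9194470 and 11508606 at 0 h and to between 9434602 and 10977496 at 8 h. Transcripts were summed to genes by the gene name in the table, and 15396 genes had enough counts to be tested. Levels are given as CPM, counts scaled to a common library size. In the first 2 principal components of all DAOY libraries, the 8 h libraries stood apart from the 0 h and 2 h libraries along the first (26.8% of the variance). Replicate 0 of the 0 h group stood apart along the second (21.8%), at 67 against -27.2 to 16.4 for the other 8 libraries. Of 14 markers of the granule lineage and of sonic hedgehog medulloblastoma, 8 were above 1 TPM (transcript abundance per length and library) in all 6 libraries, among them ZIC1, ZIC2, MEIS1, PAX6 and SFRP1. Only 2 were above 10 TPM in all 6. Another 4 stayed below 1 TPM throughout. BARHL1 was listed at 0, NEUROD1 did not exceed 0.105 TPM, EOMES 0.211 TPM and GLI1 0.561 TPM. ATOH1 was not listed. All 12 mesenchymal markers were above 10 TPM, and FN1, the gene of fibronectin, lay between 3670 and 8450 TPM. Of 8 leukocyte markers none was above 1 TPM in all 6 libraries, and PTPRC did not exceed 0.663 TPM.

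Between 0 h and 8 h, 482 genes were differentially expressed, which is 3.13% of those tested. A gene was called when its false discovery rate (FDR) was below 0.05 in edgeR with Benjamini-Hochberg correction and its level differed at least 2-fold. Of these genes, 183 were higher at 8 h (1.19%) and 299 lower (1.94%). The FDR alone was passed by 900 genes, 361 higher and 539 lower. For all 482 the 3 libraries of 0 h and the 3 of 8 h did not overlap in CPM, as was the case for 4018 of all genes tested (26.1%). The median log2 fold change of all genes was -0.0118. Bulk RNA does not tell fewer cells of one kind from less RNA per cell, and this holds for every gene that follows. The methods of the study call the replicates biological, whereas the labels do not describe the cultures they came from, so the p-values measure the spread between these samples.

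**Figure D1:**
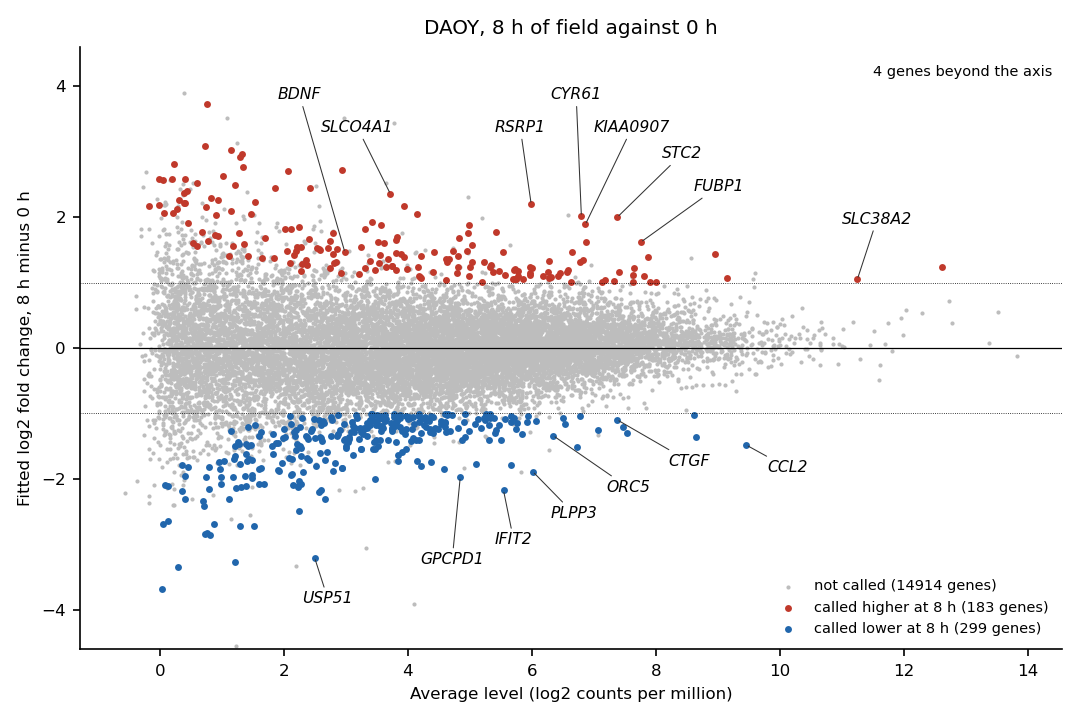
Fitted log2 fold change at 8 h against 0 h (y axis) by average level in log2 CPM (x axis) for the genes tested in DAOY, with genes that passed both criteria in red (183 higher) and blue (299 lower). Dotted lines mark a 2-fold difference, and the genes named in the plot lie on both sides over a wide range of levels.

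How many genes passed depended strongly on the 8 h replicates. When replicate 1 of 8 h was left out 31 genes passed, and when replicate 2 of 8 h was left out 75 did. Omitting replicate 0 of 8 h gave 304, omitting replicate 2 of 0 h gave 268, omitting replicate 2 of 2 h gave 304, and omitting any other single library gave between 343 and 402. The direction did not turn for any of the 482 genes in these 9 fits. Their 0 h and 8 h libraries did not overlap, so a turn was hardly possible and this is no sign of stability. There were 29 genes, 13 higher and 16 lower, that passed both criteria in every one of them. The higher ones were RSRP1, PRRG4, CYR61, KIAA0907, ZNF143, FUBP1, MALT1, CHKA, AJUBA, PRPF39, STX3, RBM33 and ZBTB40, and GPCPD1, PTCD2, NUDT12, AMACR and ORC5 were among the lower ones. With replicate 0 at 0 h left out, the library that stood apart, 402 genes passed.

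**Figure D2:**
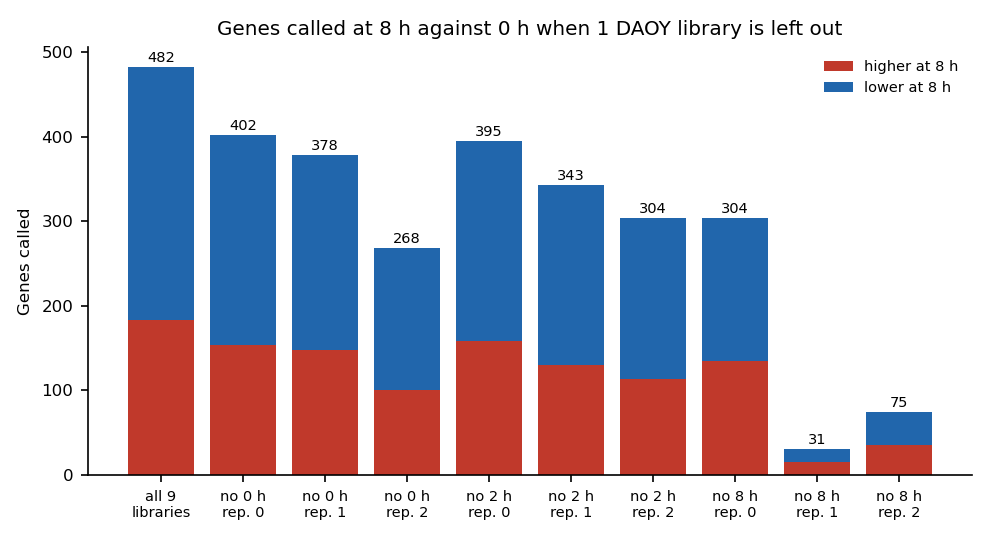
Number of genes that passed both criteria at 8 h against 0 h (y axis, red higher and blue lower) with all 9 DAOY libraries and with each library left out (x axis). The bars fall to 31 and 75 without replicates 1 and 2 of the 8 h group and stay between 268 and 402 in the other fits.

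Genes of RNA splicing and RNA binding were among those that rose with the smallest p-values. RSRP1, which encodes an arginine and serine rich protein, is encoded on the minus strand of chromosome 1 (GRCh38, 25242237 to 25338213). Its level was 25.6, 29.02 and 25.4 CPM in the 0 h libraries, 27.9, 47.8 and 45.1 CPM at 2 h and 89.0, 171.3 and 108.5 CPM at 8 h. Every 8 h library was above every library of the other times, and the log2 fold change was 2.201 (SE 0.27, adjusted p = 0.00567 in edgeR with Benjamini-Hochberg correction). KIAA0907, now named KHDC4, encodes a KH-domain protein of the spliceosome and is encoded on the minus strand of chromosome 1 (155913043 to 155934400). It was at 58.8, 49.8 and 55.9 CPM at 0 h and at 168.7, 242.1 and 197.6 CPM at 8 h. Its log2 fold change of 1.89 (SE 0.18) came with an adjusted p of 0.00384, the smallest of the comparison in edgeR with Benjamini-Hochberg correction. FUBP1, a single-strand DNA and RNA binding protein known for its action on MYC, shared that adjusted p. It is encoded on the minus strand of chromosome 1 (77944055 to 77979110) and went from 112.8, 114.1 and 139.1 CPM to 353.9, 429.3 and 341.7 CPM, a log2 fold change of 1.62 (SE 0.16).

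ZNF143, a zinc finger activator of snRNA and mRNA promoters, was the third gene with an adjusted p of 0.00384 in edgeR with Benjamini-Hochberg correction. It is encoded on the plus strand of chromosome 11 (9460319 to 9528524). The 0 h libraries held 25.1, 19.4 and 23.0 CPM, those of 2 h 29.6, 26.7 and 30.7 CPM and those of 8 h 66.8, 79.4 and 83.6 CPM. The log2 fold change was 1.77 (SE 0.16). MALT1, a paracaspase that links antigen and other receptors to NF-kB and that also cleaves RNA-binding proteins, went from 84.1, 59.8 and 61.9 CPM to 178.4, 235.9 and 217.5 CPM, with a log2 fold change of 1.62 (SE 0.20, adjusted p = 0.00567 in edgeR with Benjamini-Hochberg correction). At 2 h its libraries lay at 67.9, 59.1 and 89.0 CPM, within or close to the range of 0 h.

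The promoters of 4 of these genes are shown because the genes rose together with small p-values. They are the 4 with the largest log2 fold change among the genes of smallest p that had a promoter window, each as the 250 bases before the RefSeq start, 5′ to 3′ on the strand of the gene, on GRCh38.p14. Capitals mark matches on either strand to any of 7 motifs. AP-1 was searched as TGACTCA and the cyclic AMP element (CRE) as TGACGTCA. The motif bound by TEAD factors was searched as CATTCC and the E-box as CACGTG. The remaining motifs were the CCAAT box, the letters GGGCGG bound by SP factors, and TTTCGCGC for E2F factors. The last was also searched in its other usual form, TTTGGCGC.
RSRP1: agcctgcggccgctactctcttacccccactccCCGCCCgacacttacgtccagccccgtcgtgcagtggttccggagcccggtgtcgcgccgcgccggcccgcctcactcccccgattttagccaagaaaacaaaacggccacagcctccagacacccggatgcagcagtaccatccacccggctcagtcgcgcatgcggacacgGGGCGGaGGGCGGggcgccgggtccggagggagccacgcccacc
KIAA0907: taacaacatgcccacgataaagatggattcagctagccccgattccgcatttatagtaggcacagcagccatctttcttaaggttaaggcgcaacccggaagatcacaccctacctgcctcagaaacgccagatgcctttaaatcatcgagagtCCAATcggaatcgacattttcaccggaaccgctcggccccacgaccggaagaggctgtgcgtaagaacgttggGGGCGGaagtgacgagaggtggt
ZNF143: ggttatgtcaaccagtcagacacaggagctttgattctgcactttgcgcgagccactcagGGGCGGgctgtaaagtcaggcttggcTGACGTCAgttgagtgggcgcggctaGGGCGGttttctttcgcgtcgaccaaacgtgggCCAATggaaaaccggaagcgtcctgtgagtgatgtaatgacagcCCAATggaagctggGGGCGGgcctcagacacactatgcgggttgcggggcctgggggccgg
MALT1: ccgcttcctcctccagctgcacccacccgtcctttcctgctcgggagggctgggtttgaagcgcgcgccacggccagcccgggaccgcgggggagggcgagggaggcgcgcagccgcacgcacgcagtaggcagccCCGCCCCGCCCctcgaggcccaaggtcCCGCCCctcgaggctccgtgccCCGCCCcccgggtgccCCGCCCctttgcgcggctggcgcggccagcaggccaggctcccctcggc
The windows are RSRP1 chr1:25338255-25338504 (minus strand), KIAA0907 chr1:155934414-155934663 (minus strand), ZNF143 chr11:9460762-9461011 (plus strand), MALT1 chr18:58671215-58671464 (plus strand), and KIAA0907 is listed there as KHDC4. ZNF143 held 1 match to the CRE, 2 to CCAAT and 3 to the SP motif, RSRP1 held 3 to the SP motif, KIAA0907 1 to CCAAT and 1 to the SP motif, and MALT1 5 to the SP motif, of which the first 2 overlap. Of all 27305 windows of this length 1.77% held the CRE, 33.0% CCAAT and 42.3% the SP motif. Among the 11201 windows of tested genes the shares were 2.9%, 35.2% and 66.0%, so an SP match was common. A match is a description of the letters and not a binding site. The ZNF143 window lies inside the gene span given above, downstream of its start, because that span comes from another annotation (GENCODE). Only 72.8% of the tested genes had a window, below the 80% needed, so the share of motifs among the called genes was not compared.

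In the list of SR splicing factors, 4 of 40 tested genes rose and 1 fell (12.5%, against 3.13% of all genes). The median log2 fold change of the list was 0.284, against -0.0118 over all genes. This and the later lists were chosen with earlier results of these data known, and no set test was run. With the FDR alone 10 were higher and 1 lower. Without replicate 1 of 8 h 2 members passed both criteria, and without replicate 2 of 8 h 3 did. The 4 that rose all belonged to the 20 SR-related proteins, whose median was 0.594, while the median of the 12 SRSF genes was 0.0554. Besides RSRP1 these were CCNL2, a cyclin that partners with splicing kinases, and PRPF39 and PRPF38B, both factors of the spliceosome. CCNL2 went from 49.4, 79.5 and 48.6 CPM to 151.9, 211.1 and 130.6 CPM (log2 fold change 1.47, SE 0.30). PRPF39 went from 60.1, 49.2 and 42.9 CPM to 108.1, 145.0 and 128.5 CPM (1.33, SE 0.17), and PRPF38B from a mean of 143.2 to 287.3 CPM (1.01, SE 0.17). SRSF8, an intronless member of the SRSF family, was the one that fell, from 68.1, 55.7 and 66.2 CPM to 33.2, 28.4 and 29.1 CPM (-1.07, SE 0.15). CLK1, the kinase that phosphorylates SR proteins, passed the FDR alone with 60.7 CPM at 0 h and 105.7 CPM at 8 h on average.

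Of 50 hnRNP and related RNA-binding genes, 3 rose and 1 fell (8.0%, against 3.13% of all genes). The median log2 fold change was 0.140. The 3 were KIAA0907, FUBP1 and RBM33, a protein that takes part in mRNA export. RBM33 was close between replicates, at 61.5, 62.0 and 64.6 CPM at 0 h and 125.8, 164.7 and 142.0 CPM at 8 h (log2 fold change 1.20, SE 0.15). CIRBP, the cold-inducible RNA-binding protein, fell from 90.1, 133.7 and 109.1 CPM to 53.8, 53.1 and 52.0 CPM (-1.07, SE 0.16). None of the 22 hnRNP genes passed both criteria, and their median was -0.0266. Of the 25 genes of mRNA export and nuclear RNAs, 2 rose and 0 fell (8.0%). Both were snoRNA host genes, SNHG12 going from 7.86 to 21.6 CPM and SNHG7 from 6.78 to 17.4 CPM on average. The nuclear RNAs NEAT1 and MALAT1 had log2 fold changes of 0.07 and 0.13 and did not pass.

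**Figure D3:**
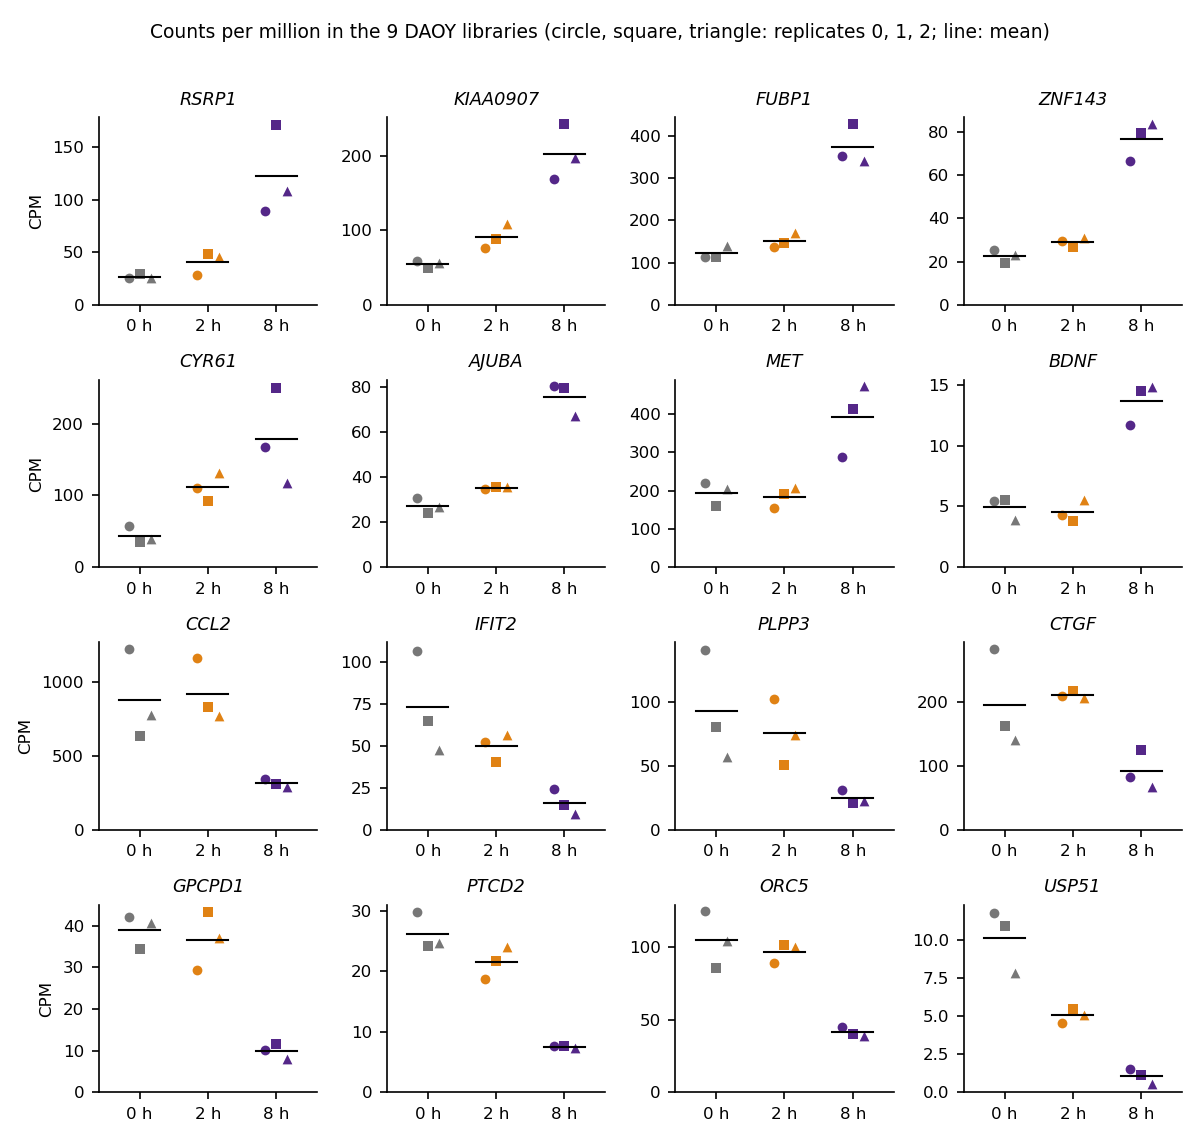
Level in CPM (y axis, from 0) of 16 genes in each DAOY library at 0, 2 and 8 h (x axis), with 1 marker shape per replicate number and a line at the mean of each group. For every gene the 8 h libraries lie apart from those of 0 h, and RSRP1, CYR61 and USP51 have 2 h means between the 0 h and 8 h means.

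CYR61 and AJUBA of the YAP/TAZ pathway were among the genes that rose in every fit. YAP and TAZ are held in the cytoplasm by LATS kinases and act in the nucleus with TEAD factors. Of 41 tested members, 4 rose and 1 fell (12.2%, against 3.13% of all genes). In 38 the log2 fold change was above 0, against 7513 of all 15396 genes, and the median was 0.439. Without replicate 1 of 8 h 2 members passed, and without replicate 2 of 8 h 3 did. None of the 6 factors (YAP1, WWTR1 and the TEAD genes) passed, with YAP1 at 220.0 CPM at 0 h and 234.2 CPM at 8 h on average. CYR61 and CTGF, both secreted matricellular proteins and the usual markers of YAP activity, moved in opposite directions. CYR61 (chromosome 1, 85580761 to 85583962, plus strand) rose from 57.6, 35.04 and 39.7 CPM at 0 h to 167.0, 250.3 and 116.9 CPM at 8 h. Its 2 h libraries lay in between, at 110.6, 91.7 and 131.4 CPM, above all of 0 h and overlapping with 8 h. The log2 fold change at 8 h was 2.02 (SE 0.29, adjusted p = 0.00884 in edgeR with Benjamini-Hochberg correction). CTGF (chromosome 6, 131948176 to 131951373, minus strand) was at 282.3, 162.0 and 140.9 CPM at 0 h and at 82.2, 124.6 and 66.9 CPM at 8 h. The groups did not overlap, but replicate 0 of 0 h was well above its group. The log2 fold change of -1.10 (SE 0.28) had an adjusted p of 0.0470 in edgeR with Benjamini-Hochberg correction and passed in 1 of the 9 fits that left out a library.

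The other members that rose were AJUBA, LATS2 and FOXF2. AJUBA, a LIM protein that holds back LATS kinases, went from 30.8, 24.2 and 26.8 CPM to 80.6, 79.6 and 67.2 CPM. Its 2 h libraries were close together at 34.7, 35.8 and 35.7 CPM, and its log2 fold change was 1.48 (SE 0.15, adjusted p = 0.00428 in edgeR with Benjamini-Hochberg correction). LATS2, one of these kinases and itself a YAP target, went from 34.1, 30.0 and 28.6 CPM to 60.6, 84.2 and 56.4 CPM (1.12, SE 0.19). FOXF2, a forkhead factor of mesenchyme, rose from a mean of 15.5 to 39.7 CPM (1.36, SE 0.27). Among the targets that did not pass, ANKRD1 was at 3.82 and 6.59 CPM on average and THBS1 at 921.4 and 956.3 CPM.

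Of 28 immediate early factors, 3 rose and 1 fell (14.3%, against 3.13% of all genes). The median was 0.512 at 8 h and 0.416 at 2 h. Without replicate 1 of 8 h, and likewise without replicate 2 of 8 h, 0 members passed. EGR1 rose from 101.8, 106.3 and 97.9 CPM to 126.7, 294.9 and 265.6 CPM, and replicate 0 of 8 h lay nearer to the 0 h libraries than to its own group (log2 fold change 1.17, SE 0.29). Its adjusted p of 0.0427 in edgeR with Benjamini-Hochberg correction held in 2 of the 9 fits without a library. NR4A2, an orphan nuclear receptor, had means of 12.6 CPM at 0 h, 31.5 CPM at 2 h and 35.2 CPM at 8 h. MAFK, a small MAF factor, rose from 13.9 to 34.5 CPM on average, passing in 1 of these 9 fits. EGR3 fell from 14.1, 11.4 and 9.797 CPM to 3.68, 5.45 and 4.78 CPM (-1.34, SE 0.28). FOS had a larger log2 fold change, 1.75, from a mean of 6.89 to 23.6 CPM, but an SE of 0.48, and did not pass (adjusted p = 0.0577 in edgeR with Benjamini-Hochberg correction). In the list of ERK feedback genes, SPRY4, a Sprouty inhibitor, was the 1 of 20 that passed (5.0%). It was at 23.7 CPM at 0 h, 40.4 CPM at 2 h and 56.1 CPM at 8 h on average. The phosphatases DUSP6 and DUSP1 had log2 fold changes of -0.22 and -0.40 and did not pass.

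Among 30 tested growth factors and receptors, 4 rose and 0 fell (13.3%, against 3.13% of all genes), and the median was 0.532. These were 2 receptors, MET and EPHA2, and 2 ligands, BDNF and VEGFC. Without replicate 1 of 8 h 0 members of the list passed, and without replicate 2 of 8 h 1 did. MET, the receptor of hepatocyte growth factor, went from 220.6, 160.2 and 204.1 CPM to 289.1, 413.4 and 473.5 CPM (log2 fold change 1.01, SE 0.21). EPHA2, an ephrin receptor, went from 6.71, 10.7 and 6.05 CPM to 28.7, 27.2 and 17.8 CPM (1.65, SE 0.31). VEGFC, a lymphangiogenic ligand, was within a narrow range at 8 h, 45.5, 48.0 and 45.4 CPM, against 26.2, 14.0 and 18.9 CPM at 0 h (1.24, SE 0.25). BDNF, the ligand of TrkB, was at 5.46, 5.53 and 3.86 CPM at 0 h, 4.26, 3.77 and 5.56 CPM at 2 h and 11.7, 14.5 and 14.9 CPM at 8 h (1.46, SE 0.25). Its rise was thus seen at 8 h and not at 2 h. EGFR had means of 325.0 and 524.5 CPM and an adjusted p of 0.0526 in edgeR with Benjamini-Hochberg correction, and ERBB2 was at 10.97 and 9.804 CPM.

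Genes of nutrient use and stress moved in several lists by few members each. SLC38A2, a transporter of neutral amino acids, went from 2140, 1433 and 1460 CPM to 2946, 4125 and 3374 CPM (log2 fold change 1.05, SE 0.22). PRMT6, an arginine methyltransferase encoded by a single exon, fell from 60.4, 46.8 and 65.5 CPM to 28.6, 22.2 and 19.0 CPM (-1.30, SE 0.21). Among 32 genes of the unfolded protein and integrated stress response, ATF4 rose from 137.4, 168.7 and 180.4 CPM to 310.0, 337.6 and 326.8 CPM (1.00, SE 0.16) and PPP1R15A, the stress-induced phosphatase subunit, from a mean of 30.3 to 69.2 CPM. These 2 genes were 6.25% of the list, against 3.13% of all genes. Neither passed without replicate 1 of 8 h or without replicate 2 of 8 h. Other members of that list did not pass, among them ASNS, DDIT3 and HSPA5 with log2 fold changes of -0.50, 0.02 and -0.22. The median of the list was 0.0365.

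Of 42 tested genes of hypoxia and glycolysis, 2 rose and 0 fell (4.76%, against 3.13% of all genes). In 37 the log2 fold change was above 0, against 7513 of all 15396 genes, and the median was 0.516. PFKFB4, which makes the activator of phosphofructokinase, went from 5.12, 8.62 and 8.13 CPM to 22.6, 25.0 and 23.9 CPM (1.70, SE 0.24). ADM, the precursor of adrenomedullin, went from 7.28, 6.34 and 5.42 CPM to 16.9, 16.2 and 25.6 CPM (1.62, SE 0.33). NDRG1 had the largest log2 fold change of the list, 2.03, with 46.1 CPM at 0 h and 188.7 CPM at 8 h, but an SE of 0.81 and an adjusted p of 0.166 in edgeR with Benjamini-Hochberg correction. Of 29 heat shock and chaperone genes, 1 rose (3.45%, near the share over all genes). It was the HSP90 cofactor CHORDC1, which went from a mean of 119.6 to 242.9 CPM. Within 34 genes of the NRF2 response 5.88% passed, the small MAF factors MAFG (52.7 to 118.1 CPM) and MAFK. Both rose, while none of the 28 targets passed.

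Among the genes with the largest rise at an average of at least 3 log2 CPM were transporters and secreted factors. SLCO4A1, an organic anion transporter, went from 5.01, 3.82 and 5.94 CPM to 29.9, 19.9 and 25.6 CPM (log2 fold change 2.36, SE 0.38, the largest of these). PRRG4, a transmembrane Gla protein, went from 9.10, 6.34 and 8.03 CPM to 28.2, 34.4 and 34.1 CPM (2.05, SE 0.26). STC2, a secreted stanniocalcin, went from 78.1, 35.7 and 119.5 CPM to 226.0, 261.5 and 445.0 CPM, with a wide spread at both times (2.00, SE 0.40). BMP4, a ligand of the TGF-beta family, was at 6.14, 5.12 and 6.88 CPM at 0 h and at 22.7, 22.6 and 21.7 CPM at 8 h (1.89, SE 0.31). It was the 1 of 39 tested genes of the TGF-beta and BMP list that passed (2.56%, against 3.13% of all genes). SLC1A3, a glutamate transporter of glia, rose from 20.6, 15.0 and 12.5 CPM to 57.1, 55.1 and 50.8 CPM (1.76, SE 0.28), whereas GFAP did not exceed 0.763 TPM and S100B 0.398 TPM in any of the 6 libraries. Of the 9 astrocyte and glia markers, SLC1A3 among them, 4 were tested, with 1 log2 fold change above 0 and a median of -0.28. CCNA1, RGPD8, TMEM156 and the choline kinase CHKA rose as well, with log2 fold changes of 1.93, 1.68, 1.88 and 1.48. CHKA passed in all 9 fits that left out a library, RGPD8 in 8, CCNA1 in 7 and TMEM156 in 1. RGPD8 has near-identical copies in the genome, so its counts are uncertain.

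Genes of chemokines and the interferon response were among those that fell. Of 53 tested members, 5 fell, against 1.94% of all genes, 1 rose (MALT1) and the median was -0.197 at 8 h. Of these 6 genes, 1 passed without replicate 1 of 8 h and 2 passed without replicate 2 of 8 h. CCL2, which attracts monocytes, was the most abundant at 1219, 636 and 777 CPM at 0 h and 1161, 828 and 768 CPM at 2 h. It fell to 344.0, 307.3 and 290.3 CPM at 8 h (log2 fold change -1.48, SE 0.25, adjusted p = 0.0132 in edgeR with Benjamini-Hochberg correction). IFIT2, IFIT3 and IFIT5, interferon-induced proteins encoded in one cluster on chromosome 10 and known to bind foreign RNA, all fell. IFIT2 went from 107.1, 64.9 and 47.4 CPM to 24.1, 15.1 and 9.25 CPM (-2.17, SE 0.37), IFIT3 from 208.6, 122.9 and 87.1 CPM to 64.1, 47.7 and 35.1 CPM (-1.51, SE 0.33) and IFIT5 from 71.6, 48.1 and 49.1 CPM to 23.2, 17.1 and 23.6 CPM (-1.40, SE 0.20). OASL, of the oligoadenylate synthetase family, went from 38.2, 36.0 and 27.9 CPM to 14.6, 7.41 and 6.13 CPM (-1.86, SE 0.32).

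The summed level of the leukocyte markers was between 1.30 and 1.64 TPM at 0 h and between 2.34 and 2.51 TPM at 8 h. That of the 8 epithelial markers was between 95.5 and 205 TPM at 0 h and between 206 and 270 TPM at 8 h. The 2 h libraries reached into both groups, at 0.702 to 2.94 TPM for the leukocyte markers and 170 to 246 TPM for the epithelial ones. The sum of the astrocyte and glia markers, SLC1A3 among them, was 16.2 TPM higher at 8 h than at 0 h on average, without overlap. For each of these sums the exact two-sided permutation test of 8 h against 0 h gave p = 0.1, the smallest it can give. The part of these sums in the results was not tested. The interferon genes did not all fall. IFIT1 had a log2 fold change of -1.28 (SE 0.55) and did not pass, while MX1 (105.7 to 119.7 CPM) and ISG15 (15.4 to 18.8 CPM) had higher means at 8 h and did not pass either. Among the chemokines, CXCL8 was at 713.4 and 812.4 CPM on average and CXCL1 at 242.4 and 200.2 CPM. In all 5 genes of the list that fell, replicate 0 of 0 h, the library that stood apart, was the highest of all DAOY libraries. IL1B and CCL7 had log2 fold changes of -2.17 and -2.18 with SE of 0.80 and 0.86 and did not pass.

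The genes with the smallest p-values among those that fell lay outside that list. GPCPD1, an enzyme of glycerophosphocholine breakdown (chromosome 20, 5544404 to 5611026, minus strand), went from 42.2, 34.5 and 40.7 CPM at 0 h and 29.4, 43.3 and 37.0 CPM at 2 h to 10.2, 11.6 and 8.00 CPM at 8 h (log2 fold change -1.98, SE 0.21, adjusted p = 0.00463 in edgeR with Benjamini-Hochberg correction). PTCD2, a mitochondrial RNA-processing protein, fell from 29.8, 24.2 and 24.6 CPM to 7.64, 7.65 and 7.27 CPM (-1.797, SE 0.19). NUDT12, which hydrolyses NADH and NAD-capped RNA, fell from 27.2, 22.03 and 27.3 CPM to 7.83, 6.603 and 8.52 CPM (-1.73, SE 0.19). AMACR, a racemase of branched-chain fatty acids, fell from 21.8, 19.4 and 19.7 CPM to 6.72, 7.18 and 6.23 CPM (-1.60, SE 0.18). In all 4 genes the 2 h libraries lay well above those of 8 h. ORC5, a subunit of the origin recognition complex, fell from 125.0, 85.9 and 104.2 CPM to 45.2, 40.1 and 39.1 CPM (-1.34, SE 0.16).

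USP51, a histone deubiquitinase on the X chromosome (55484616 to 55489202, minus strand), had the largest fall of the genes named here. It was at 11.7, 10.9 and 7.82 CPM at 0 h, at 4.56, 5.46 and 5.10 CPM at 2 h and at 1.57, 1.16 and 0.519 CPM at 8 h. The log2 fold change was -3.21 (SE 0.37, adjusted p = 0.00546 in edgeR with Benjamini-Hochberg correction), and the 2 h libraries lay between the other groups without overlap. TATDN3, VIPAS39, RWDD2B and the noncoding RP11-76C10 completed the 10 genes with the smallest p-values, with log2 fold changes of -1.73, -1.41, -1.41 and -2.01.

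Further genes with a large fall were PLPP3, HAS2, TDO2, NAP1L3, ZNF287, FPGT, MBLAC2 and CUTC. PLPP3, which removes lysophosphatidic acid outside the cell, went from 140.8, 80.7 and 56.8 CPM to 31.4, 20.9 and 22.7 CPM (-1.89, SE 0.35). HAS2, a hyaluronan synthase, went from 149.5, 65.5 and 34.8 CPM to 26.3, 24.7 and 21.5 CPM (-1.78, SE 0.45), and TDO2, a tryptophan dioxygenase, from 67.2, 44.1 and 22.3 CPM to 12.1, 13.6 and 13.5 CPM (-1.77, SE 0.44). Replicate 0 of 0 h was again the highest library for these 3 genes, and HAS2 and TDO2 passed in 2 and 3 of the 9 fits that left out a library. A family chosen after its values were seen was that of the ZNF genes, C2H2 zinc finger factors for the most part. Of 478 tested, 22 fell and 4 rose (5.44%, against 3.13% of all genes), and their median log2 fold change was -0.194.

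**Figure D4:**
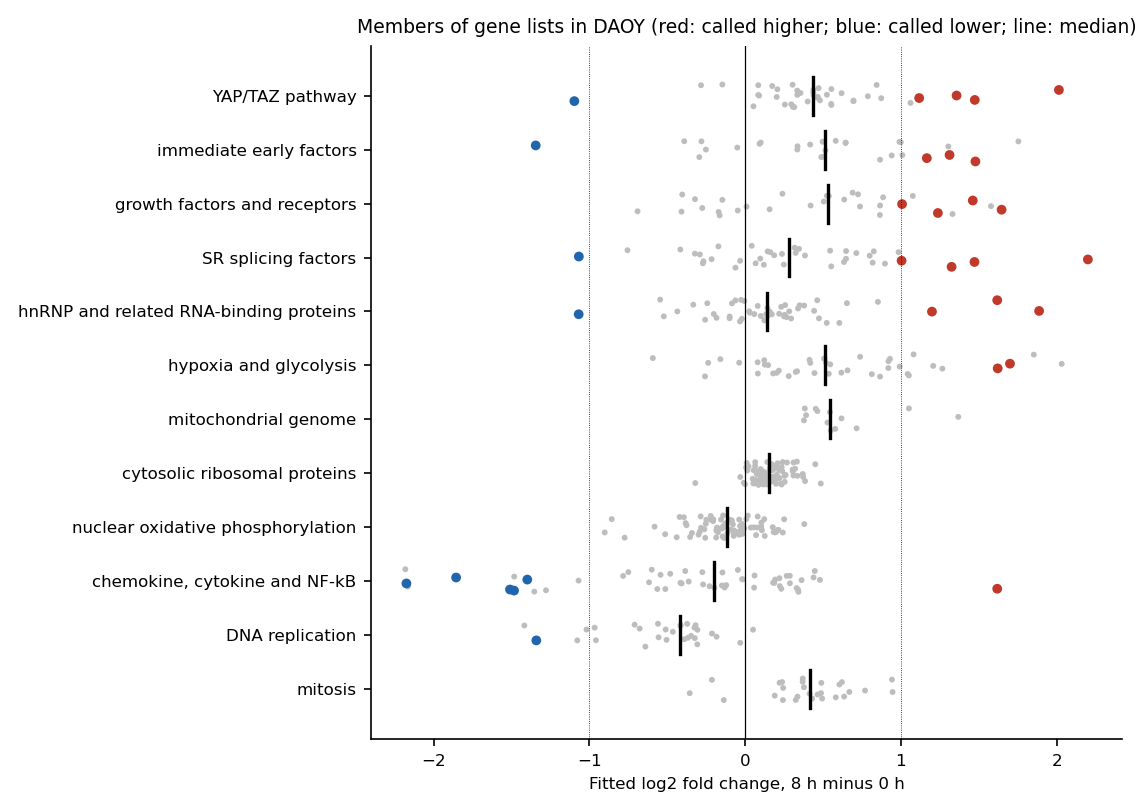
Fitted log2 fold change at 8 h against 0 h (x axis) of each tested member of 12 gene lists (y axis), with members that passed both criteria in red or blue and the list median as a black line. The interferon and chemokine list reaches furthest to the left, and DNA replication and mitosis genes lie on opposite sides of 0 with 1 member passing.

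Genes of the cell cycle lay on both sides of 0. Of 29 DNA replication genes, 28 had a log2 fold change below 0 with a median of -0.415, while of 27 genes of mitosis 24 lay above 0 with a median of 0.415. At 2 h the medians against 0 h were -0.123 and -0.702. ORC5 alone passed, and the other replication genes, such as PCNA (258.0 to 181.2 CPM), MCM6 (120.4 to 77.2 CPM) and CCNE2 (36.7 to 13.7 CPM), did not. Neither did the mitotic genes AURKA (64.4 to 123.9 CPM), MKI67 (205.0 to 319.0 CPM) and CCNB1 (266.0 to 354.7 CPM). Their SE were large, 0.52 for AURKA and 0.58 for MKI67. The 34 cyclin, CDK inhibitor and p53 genes and the 10 replication-dependent histone genes held none that passed.

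Transcripts of the mitochondrial genome took 5.70%, 5.59% and 2.92% of the counts in the 0 h libraries and 5.97%, 8.44% and 6.03% in those of 8 h. The groups did not overlap, and the exact two-sided permutation test of 3 against 3 gave p = 0.1, the smallest it can give. All 13 of its protein coding genes had a log2 fold change above 0, with a median of 0.545, and none passed both criteria, while 1 did with the replicate number as a block. Of its 15 tested genes, which include the ribosomal RNAs, MT-RNR2 rose, from 5096, 4177 and 3535 CPM to 6950, 15760 and 7490 CPM (log2 fold change 1.24, SE 0.32, adjusted p = 0.0480 in edgeR with Benjamini-Hochberg correction). The 77 nuclear genes of oxidative phosphorylation held none that passed either, with a median of -0.118 and 21 above 0. Of the 80 cytosolic ribosomal protein genes none passed and 76 lay above 0, but the median was only 0.153, and with limma on log2(TPM + 1) it was 0.0675 with 53 above 0. Ribosomal protein genes took 2.96% of counts at 0 h and 3.05% at 8 h (exact two-sided permutation test, p = 0.9, n = 3 and 3).

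Genes by which cells move and attach were counted against the 3.13% of all genes that passed. None of 24 actin and myosin genes and none of 44 genes of collagens, laminins and matrix proteases passed both criteria, with medians of 0.147 and 0.144. Of 48 integrin and focal adhesion genes 1 rose (2.08%), ITGA7, an integrin subunit at only 0.683, 2.11 and 0.938 CPM at 0 h and 4.24, 3.71 and 3.64 CPM at 8 h, and it passed in 1 of the 9 fits that left out a library. In the list of 39 ion channels and pumps, KCNJ2, an inward rectifier potassium channel, rose from 3.41, 5.12 and 5.11 CPM to 8.56, 12.4 and 11.1 CPM (1.23, SE 0.28) and passed in 2 of these 9 fits. Of 45 tested PI3K, AKT and mTOR genes 1 fell, FOXO1, a factor that AKT inhibits, from 58.2, 35.4 and 44.8 CPM to 17.4, 20.6 and 23.9 CPM (-1.16, SE 0.24). No kinase, adaptor or inhibitor of that list passed.

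Of 24 tested Hedgehog and Notch genes 1 passed (4.17%, against 3.13% of all genes). The Notch effector HEY2 fell from 5.51 to 2.67 CPM on average but passed in 0 of the 9 fits without a library, and PTCH1, a Hedgehog receptor and target, had a log2 fold change of -0.48 and did not pass. Of 17 circadian clock genes 1 passed (5.88%). BHLHE41, a repressor of the clock, fell from 176.6, 91.6 and 99.7 CPM to 55.5, 44.95 and 63.5 CPM (-1.17, SE 0.26). None of 37 genes of sterol and fatty acid synthesis and none of 8 tested metallothionein and zinc transport genes passed.

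The 8 h libraries were also compared with those of 2 h, which tests the later part of the change directly. Here 160 genes passed (1.04%), 59 higher and 101 lower, and 140 of them were among the 482 and moved in the same direction. At 2 h against 0 h 0 genes passed (0%) in edgeR with Benjamini-Hochberg correction, with 424 at an unadjusted p under 0.05. FUBP1, ZNF143, MALT1, PRPF39, GPCPD1, PTCD2, AMACR and ORC5 differed between 8 h and 2 h at an adjusted p of 0.0133 in edgeR with Benjamini-Hochberg correction. CYR61, EGR1, NR4A2, PPP1R15A and SNHG7 did not pass in this comparison, with log2 differences of 0.68, 0.38, 0.16, 0.28 and 0.35. The count at 8 h against 2 h was 0 without replicate 1 or 2 of either time and 7 without replicate 0 of 2 h. It was 65 without replicate 0 of 8 h, 82 without replicate 2 of 0 h and 289 without replicate 0 of 0 h, against 160 with all libraries.

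In U87mg, 90 of 14106 tested genes passed at 8 h against 0 h (0.638%). Of the 412 DAOY genes that were tested there as well, 381 had a log2 fold change of the same sign. The share over all genes tested in both lines was not counted, so this is not read as a trait of the called genes. The difference of the 8 h change between the lines was tested itself in 16482 genes, and 2 passed (0.0121%), BDNF and KRT80. BDNF rose in DAOY and had a log2 fold change of -0.55 (SE 0.12) in U87mg, a difference of 2.02 (SE 0.24, adjusted p = 0.00281 in edgeR with Benjamini-Hochberg correction). KRT80, a keratin, was low in DAOY, with 0.341, 0.732 and 0.834 CPM at 0 h, 1.39 CPM in each library at 2 h and 2.58, 2.78 and 4.05 CPM at 8 h. Its log2 fold change was 2.26 (SE 0.40) in DAOY and -0.01 (SE 0.16) in U87mg, and the difference of 2.27 (SE 0.35) had an adjusted p of 0.0359 in edgeR with Benjamini-Hochberg correction. Between 1 and 5 genes passed this test of the difference when 1 library was left out, and 0 with the replicate number as a block, where the smallest adjusted p was 0.0661 in edgeR with Benjamini-Hochberg correction. Only 1 passed without replicate 2 of DAOY 0 h, or without replicate 1 or 2 of DAOY 8 h, U87mg 0 h or U87mg 8 h. Without replicate 1 of DAOY 0 h, 1 gene was higher and 3 were lower. At most 1 of BDNF and KRT80 therefore passed in these fits. For every other gene that passed in DAOY, such a difference was not shown.

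Since the table names a type for each transcript, the counts were also summed for each gene and type. Of 23540 such sums 224 passed (0.952%), 88 higher (0.374%) and 136 lower (0.578%). Sums of retained intron transcripts, noncoding forms that keep an intron, were mostly higher, with 25 of 3289 rising and 2 falling and a median log2 fold change of 0.317. Protein coding sums had the opposite balance, 45 higher and 109 lower of 12992, with a median of -0.0642. In the 3093 genes where both types were tested, the median was 0.314 for retained intron and -0.0128 for protein coding sums, and in 2051 of them the retained intron sum had the higher log2 fold change. By library, the median log2 ratio of retained intron sums to the 0 h mean was 0.233, 0.449 and 0.329 at 8 h, against -0.0626 to 0.079 at 0 h and -0.235 to 0.152 at 2 h. As a share of all counts, these transcripts took 3.09%, 3.02% and 3.29% at 0 h and 3.21%, 3.81% and 3.41% at 8 h, which overlap (exact two-sided permutation test, p = 0.2, n = 3 and 3).

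**Figure D5:**
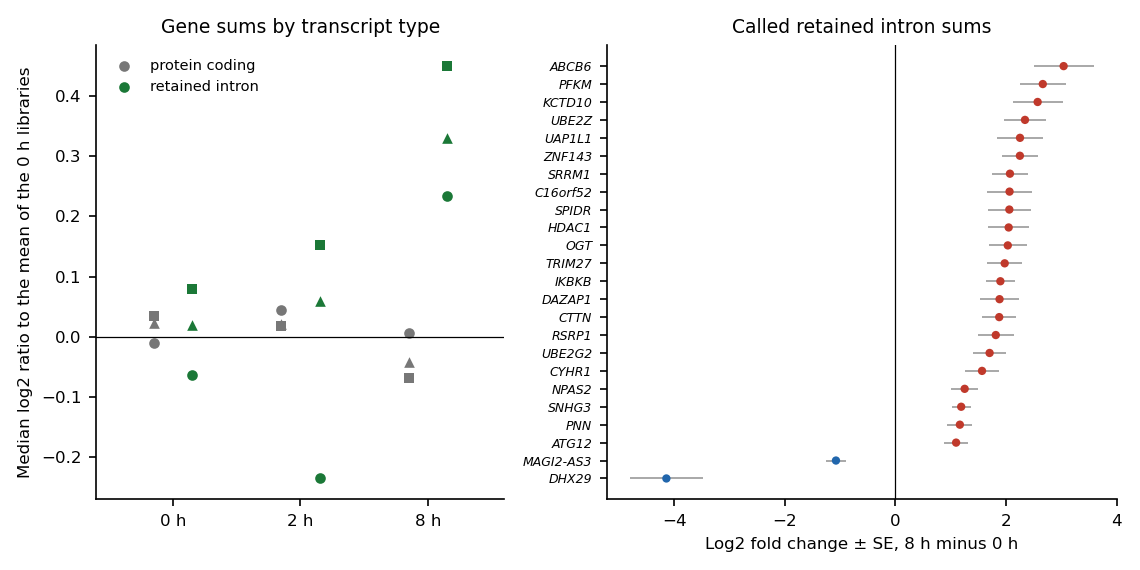
Left, median over gene sums of the log2 ratio to the mean of the 0 h libraries (y axis) in each DAOY library at 0, 2 and 8 h, for protein coding (grey) and retained intron (green) transcripts with 1 marker shape per replicate. Right, log2 fold change with SE at 8 h against 0 h (x axis) of the retained intron sums that passed, had counts at 0 h and are reported here, 22 higher and 2 lower.

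Retained intron sums that rose included those of OGT, the O-GlcNAc transferase whose intron is known to be regulated, at a mean of 40.1 CPM at 0 h and 164.1 CPM at 8 h (log2 fold change 2.03, SE 0.35). Others were ZNF143 (2.47 to 11.8 CPM), RSRP1 (12.4 to 43.6 CPM) and the splicing factors SRRM1 (5.58 to 23.5 CPM) and PNN (10.7 to 24.0 CPM). These genes were singled out after their values were seen. In RSRP1 the sum of transcripts subject to nonsense mediated decay rose from 8.17 to 56.1 CPM. Its protein coding transcripts reached 7.31 CPM at 8 h and were listed at 0 in all 0 h libraries. That coding sum did not pass (adjusted p = 0.0574 in edgeR with Benjamini-Hochberg correction). FUBP1, KIAA0907, RBM33, MALT1, AJUBA and CYR61 rose in their protein coding sums, so their change did not lie in other types alone. CCNL2 was mostly retained intron RNA, 47.4 CPM at 0 h and 108.7 CPM at 8 h, and that sum did not pass. Its nonsense mediated decay sum passed, from 0 in all 0 h libraries to 26.5, 48.5 and 6.74 CPM at 8 h. No type sum passed without replicate 1 or 2 of 8 h or replicate 2 of 0 h, 6 passed without replicate 0 of 8 h, and between 20 and 47 passed without any other single library. Reads that match several transcripts are divided among them by estimation, so counts by type are less certain than gene sums.

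For single transcripts, 0 of 41336 passed (0%) in edgeR with Benjamini-Hochberg correction, with 4276 at an unadjusted p under 0.05 and 1215 passing with DESeq2. The spread between replicates was larger there, with a biological coefficient of variation of 0.833 against 0.256 for genes. The most abundant transcript of RSRP1 (ENST00000566395, nonsense mediated decay) went from a mean of 10.4 to 69.8 TPM. In ZNF143 the most abundant was a retained intron form (ENST00000532305), at 9.11 TPM at 0 h and 39.9 TPM at 8 h.

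The genes that passed were compared with all tested genes in their structure, as a description, by the most abundant transcript of each. A single exon was found in 13.7% of the lower genes and in 10.4% of the higher ones, against 6.18% of all. Where that transcript was protein coding, the shares were 7.21% of lower and 2.65% of higher genes against 2.6% of all. The median GC content was 43.3% in lower and 49.5% in higher genes against 47.4% over all, and the median transcript length 2339, 2664 and 2262 bases. The relation to GC content differed between libraries. From coding genes of at most 40% GC to those above 60%, the median log2 fold change went from -0.119 to 0.274 in replicate 0 of 8 h, from 0.0287 to -0.0215 in replicate 1 and from -0.0436 to 0.112 in replicate 2. At 2 h it went from -0.0989 to 0.29. Over all coding genes the median log2 fold change was -0.142 for those with 1 exon and 0.0886 for those with more than 20 exons. In the 8 h libraries taken singly, the first of these medians was -0.0469, -0.240 and -0.082 and the second 0.108, 0.132 and 0.113.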

How the data were processed

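RNA of DAOY and U87mg aggregates at 0, 2 and 8 h was read as single-end poly-A libraries. The authors estimated transcript abundance with kallisto 0.43.0 on GENCODE 24 transcripts (GRCh38.p5), and the deposited table holds estimated counts and TPM for each of 145326 transcripts and 18 samples. The option for strand is not given in the sources used here. Its columns of the authors' own comparisons (p-values, q-values, fold changes) were not used. Deposited estimated counts were summed by gene name, by gene and transcript type, or kept per transcript, and rounded to whole numbers. Names of clones had lost their version, so a few may merge genes. Coordinates come from GENCODE 29 on GRCh38, which held 99.2% of the transcripts.

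The 9 DAOY samples were fitted together with edgeR 4.0.16 (TMM scaling, low counts removed by its default filter, quasi-likelihood test). Each SE was derived from that test, as the absolute log2 fold change divided by the square root of the F statistic. A gene was called when its Benjamini-Hochberg FDR was under 0.05 and it differed by 1 or more on the log2 scale. The lines were compared in a fit of all samples. Alternatives used DESeq2 1.42.0 and limma 3.58.1 on log2(TPM + 1), as well as other filters, scalings and samples. The shares of counts were compared by exact permutation tests (scipy 1.17.1), which with 3 against 3 cannot go below 0.1.

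The text names the 15 genes per direction with the largest change at an average of at least 3 log2 CPM, the 10 per direction with the smallest p and every called member of a gene list, 74 genes in all. Other genes are named as uncalled examples of a list or where a result turns on them. Some results are not reported here. The members and lists were chosen with earlier results of these data known. On simulated counts of 15396 genes, 65 of 100 genes changed by 1.5 on the log2 scale and 86 of 100 changed by 2.5 were called, with 10 unchanged genes. For single transcripts these were 0 and 3 of 100, and for type sums 10 and 53 of 100. The deviations of same-numbered replicates from their group means correlated at -0.054, 0.0624 and 0.315 between 0 h and 8 h. Between 2 h and 8 h the values were 0.437, 0.0653 and 0.0989, and between 0 h and 2 h -0.0615, -0.2 and -0.171. As these differed in sign, the numbers were not taken as pairs, and a fit with the number as a block is given as an alternative. Different numbers correlated in both directions between 0 h and 2 h. Replicate 2 of 0 h had 0.448 with replicate 1 of 2 h and -0.275 with replicate 0 of 2 h. Neither fit models a match across numbers.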

Additional observations from a re-analysis of the deposited data

Results flagged for a closer look

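The 8 h change of BDNF and of KRT80 differed between the lines by the test of the difference itself. For BDNF the change in DAOY minus that in U87mg was 2.02 on the log2 scale (SE 0.24, adjusted p = 0.00281 in edgeR with Benjamini-Hochberg correction), with all 3 DAOY libraries of 8 h above those of 0 h. For KRT80, named because its difference passed, it was 2.27 (SE 0.35, adjusted p = 0.0359 in edgeR), again with all 3 DAOY libraries of 8 h above those of 0 h, but with at most 9 counts in a 0 h library and 39 in an 8 h library. With the replicate number as a block 0 genes passed, and the smallest adjusted p was 0.0661 in edgeR. Without replicate 1 or 2 of DAOY 8 h only 1 gene passed, so at most 1 of BDNF and KRT80 held in each of these fits. Groups of 3 were not tested for outlying samples.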

How the results depend on the processing

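Against 482 genes at 8 h versus 0 h, 900 passed with the FDR alone, 178 with only the 6 samples compared, 732 with all 18 samples in one fit and 302 with limma on log2(TPM + 1), where 76 were higher and 226 lower. Protein coding transcripts alone, an alternative chosen after seeing the data, gave 272. The count stayed within 1.5 times with DESeq2 (617), without a filter (675), with a minimum of 10 counts (417) and with RLE scaling (465). Leaving out 1 library gave 31 to 402. At 8 h versus 2 h, 160 genes became 244 with the FDR alone, 396 with DESeq2, 403 without a filter and 0 to 289 without 1 library. For the difference between lines, 2 genes became 57 with DESeq2, 156 without a filter and 1 to 5 without 1 library. For single transcripts, 0 became 1215 with DESeq2, 10 without a filter, 207 with a minimum of 10 counts, 285 with all 18 samples and 13 with limma, and was 0 without any 1 library. For type sums, 224 became 771 with DESeq2, 0 with only the 6 samples compared and 0 to 47 without 1 library. The cause of these shifts was not tested.

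With the replicate number as a block, 326 genes passed at 8 h versus 0 h, 50 at 8 h versus 2 h, 0 for the difference between lines, 0 type sums and 0 transcripts. Not every sample correlated best with its own number, since replicate 0 of 8 h correlated more with replicate 1 of 0 h (0.212). Of 1475 values of the 74 named genes under the alternatives, 1186 stayed on the same side of the threshold, 289 no longer passed and 0 turned direction. A turn was hardly possible, since the 0 h and 8 h libraries of called genes did not overlap. Without replicate 1 of 8 h 52 of the 74 no longer passed, and without replicate 2 of 8 h 41. The difference in the mitochondrial share was 1.17 to 2.56 percentage points without 1 library, and in the retained intron share 0.177 to 0.477, both added after seeing the data.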
